A study of Homo sapiens with 6 samples.

Results

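The baseline transcriptome of SKOV3ip1 cells treated with a control siRNA was described from the 3 control arrays of a study with 6 single-colour Illumina bead arrays. SKOV3ip1 is a human ovarian carcinoma line, a subline of SKOV3 recovered from the peritoneal fluid of a mouse that carried SKOV3 cells. The 3 arrays used here held RNA of cells given a control siRNA (siCon), and the other 3 held RNA of cells given an siRNA against STAT3, a transcription factor, and are not compared here. The siCon cells were therefore transfected and not untreated, and they stand for 1 cell line. The labels do not say whether the 3 samples came from separate cultures, so the spread between them may be technical, and with 3 arrays every level has limited precision. All 18849 genes with a named probe were members, out of the same 18849 in the whole series.

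Each value is a fluorescence intensity in arbitrary units, and a gene was represented by its brightest named probe. A rank orders probes by brightness, which depends on the probe as well as on the transcript, so ranks place genes roughly and do not measure how much more of one transcript there was than of another. The background limit was set on each array at the 95th percentile of the 364 olfactory receptor genes measured, a family read mainly in the nose. A gene was called above background when it passed that limit on all 3 arrays. A gene that did not pass was not shown to be silent, since its probe may miss its transcript, which was not tested. No test was made, because 1 group was described.

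As background, a growing carcinoma cell devotes much of its messenger RNA to ribosomal proteins, translation factors, the cytoskeleton and energy metabolism. Ovarian carcinomas are epithelial tumours, most of them of Müllerian type, a lineage marked by the transcription factor PAX8, and they spread over the peritoneum, where integrins and CD44 hold cells to mesothelium and matrix. SKOV3 is known for extra copies of ERBB2, a receptor tyrosine kinase, and for the loss of the cell cycle inhibitor gene CDKN2A.

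Of the 18849 genes, 10094 (53.6%) were above background on all 3 siCon arrays. Another 2150 (11.4%) passed the limit on 1 or 2 arrays, and 6605 (35.0%) were at or under it on all 3. The limits were 103.4, 104.0 and 102.3 on siCon arrays 1 to 3, close to the median gene at 126.1, 125.6 and 124.5. The olfactory receptor genes themselves had medians of 85.56, 87.31 and 86.49. An intensity over 1000 on all 3 arrays was found for 2559 genes (13.6%), and 167 genes were over 10000. The 100 brightest genes held 15.7%, 15.8% and 16.1% of the summed intensity of the 3 arrays.

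**Figure D1:**
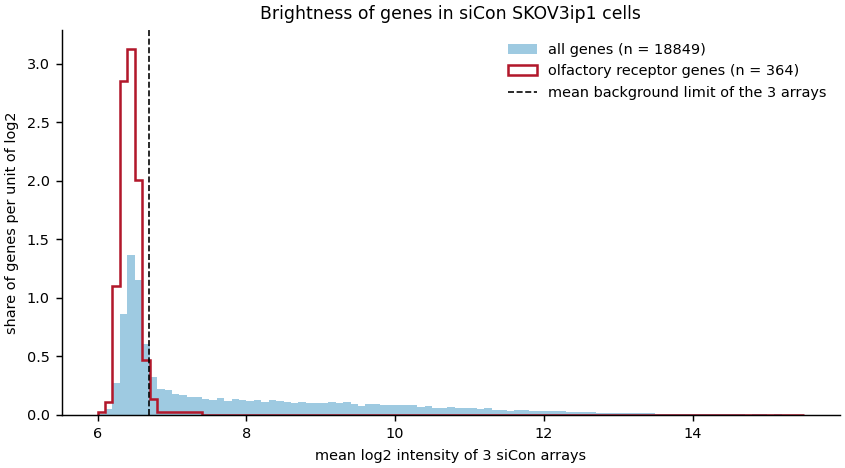
Distribution of gene brightness, as the mean log2 intensity of the 3 siCon arrays (x axis) against the share of genes per unit of log2 (y axis), for all 18849 genes (filled) and the 364 olfactory receptor genes (outline). The dashed line is the mean background limit: the olfactory receptor genes lie in 1 narrow peak left of it, and all genes share that peak and extend in a long tail to the right.

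The brightest probes were mostly those of housekeeping machinery. ACTG1, which encodes cytoplasmic gamma actin, had intensities of 42260, 44030 and 44030 on siCon arrays 1 to 3 and ranked 1 of all genes (probe ILMN_2053178). EEF1A1, the elongation factor that brings aminoacyl-tRNA to the ribosome, followed at 41590, 39030 and 42260. For both genes the arrays lay within 1.08-fold of each other. Ribosomal proteins RPL6 (37790 ± 1271, SD, n = 3 arrays) and RPL41 (37210 ± 1431) were among the first 6. So were TMSB4X, the actin-binding peptide thymosin beta 4 (37410 ± 1851), and LDHA, the lactate dehydrogenase subunit of fermenting cells (37320 ± 3718). The other probes of TMSB4X and RPL41 averaged 131.1 and 194.5, far dimmer though above the limit. LDHA was at 35610 and 34770 on arrays 1 and 2 and at 41590 on array 3, so array 3 stood above the others. The first 20 also held TPT1, the translationally controlled tumour protein, the glycolytic enzyme ENO1, the chaperone HSP90AA1, the tubulin TUBA1B, the ribosomal proteins RPS29, RPS25 and RPS16, the thymosin TMSB10 and the intermediate filament gene VIM. MT2A, a metallothionein that binds zinc and copper, had the widest spread among them, with 37330, 31080 and 25200 on arrays 1 to 3. OAZ1, which restrains polyamine synthesis, had 27870, 31870 and 26690.

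Of the 100 brightest genes, 27 encoded cytosolic ribosomal proteins, 11 cytoskeletal proteins, 6 translation factors and 4 subunits of oxidative phosphorylation, and 77 genes were among the 100 brightest of every array taken alone. Over whole gene lists the same groups stood high. Of 70 cytosolic ribosomal protein genes measured, 69 were above background, against 53.6% of all genes. The median intensity of the 70 was 12500, against 125 for all genes. RPL10 was the exception at 88.95, and whether its probe reads its transcript was not tested. All 33 translation factors, all 28 cytoskeletal genes and all 18 genes of glycolysis passed, with medians of 4080, 9130 and 3810. Oxidative phosphorylation passed in 49 of 52 genes with a median of 4180, led by the ATP synthase subunit ATP5F1B at 23070 ± 1968. Chaperones and the proteasome passed in 33 of 34 genes. Genes of iron handling and antioxidant defence passed in 21 of 24, led by the ferritin light chain FTL (21840 ± 1730), the peroxiredoxin PRDX1 (20380 ± 2116) and thioredoxin TXN (19710 ± 1599). Among S100 proteins and annexins, calcium-binding proteins of the membrane and cytoplasm, 17 of 28 passed and ANXA2 reached 24410 ± 683.4.

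Promoter sequences were set beside brightness, since most of the bright genes are read in every tissue and olfactory receptor genes mainly in the nose. The windows are RefSeq promoters of GRCh38.p14, from 250 bases before to 50 after each gene's start, and 14873 of the 18849 genes (78.9%) had one. The 5 windows below show the 2 brightest genes, the brightest secreted product (CXCL8), the brightest gene of the receptor lists (ITGB1) and the dimmest olfactory receptor gene (OR10A5). Capitals mark matches, on either strand, to 4 motifs, and overlapping matches were all counted. The motifs were TATAAA for the TATA box, the letters CCAAT of the box of that name, GGGCGG for the core of sites bound by SP1, and CCGGAAG for ETS factors.
ACTG1, chr17:81512750-81513049, minus strand: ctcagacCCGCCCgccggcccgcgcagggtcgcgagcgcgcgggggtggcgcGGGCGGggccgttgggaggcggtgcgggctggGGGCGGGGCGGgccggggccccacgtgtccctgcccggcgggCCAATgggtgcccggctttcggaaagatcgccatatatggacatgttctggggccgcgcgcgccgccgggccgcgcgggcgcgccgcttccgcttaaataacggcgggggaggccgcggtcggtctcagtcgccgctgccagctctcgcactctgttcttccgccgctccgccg
EEF1A1, chr6:73520983-73521282, minus strand: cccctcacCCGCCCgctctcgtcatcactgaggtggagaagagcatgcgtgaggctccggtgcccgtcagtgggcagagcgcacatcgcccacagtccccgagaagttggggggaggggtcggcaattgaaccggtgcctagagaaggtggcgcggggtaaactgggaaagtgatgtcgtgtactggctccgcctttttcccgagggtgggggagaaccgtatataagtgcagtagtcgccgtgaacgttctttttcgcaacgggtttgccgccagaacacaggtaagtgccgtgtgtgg
CXCL8, chr4:73740319-73740618, plus strand: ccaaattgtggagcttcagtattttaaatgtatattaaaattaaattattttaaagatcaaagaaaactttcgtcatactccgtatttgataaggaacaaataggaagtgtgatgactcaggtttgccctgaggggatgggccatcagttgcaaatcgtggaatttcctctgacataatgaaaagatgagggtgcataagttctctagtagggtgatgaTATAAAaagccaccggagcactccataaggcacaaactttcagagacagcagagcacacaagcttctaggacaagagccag
ITGB1, chr10:32958181-32958480, minus strand: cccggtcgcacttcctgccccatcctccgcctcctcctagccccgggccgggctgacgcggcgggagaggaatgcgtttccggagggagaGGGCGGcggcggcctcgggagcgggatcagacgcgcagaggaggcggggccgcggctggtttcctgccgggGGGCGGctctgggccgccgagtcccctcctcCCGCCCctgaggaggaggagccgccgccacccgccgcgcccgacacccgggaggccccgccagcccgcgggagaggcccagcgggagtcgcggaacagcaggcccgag
OR10A5, chr11:6845433-6845732, plus strand: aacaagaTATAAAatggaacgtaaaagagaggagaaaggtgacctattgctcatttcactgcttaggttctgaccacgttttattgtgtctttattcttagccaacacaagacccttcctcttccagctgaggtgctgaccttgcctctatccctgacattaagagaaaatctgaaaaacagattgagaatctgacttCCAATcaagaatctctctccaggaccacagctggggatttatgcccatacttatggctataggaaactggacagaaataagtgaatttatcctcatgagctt

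The ACTG1 window held 50 CpG dinucleotides and 4 matches to GGGCGG, and the ITGB1 window held 39 CpG and 3 such matches. EEF1A1 had 24 CpG and 1 GGGCGG. The windows of CXCL8 and OR10A5 had 4 and 2 CpG and each held TATAAA once. In OR10A5 that match lay near the far end of the window, and in CXCL8 it lay close before the start. Thus CXCL8, with an intensity among the 100 brightest, had a window low in CpG like that of OR10A5. The 50 bases after the annotated start of OR10A5 open with atg, the letters of a start codon. Its window may therefore not lie around the start of transcription, which was not tested.

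Across all genes the median window held 27 CpG where the gene was above background (8314 windows) and 10 where it was not (6559 windows). The 100 brightest genes had a median of 24.5 (84 windows) and the olfactory receptor genes of 1 (289 windows). Whether the annotated starts of olfactory receptor genes are starts of transcription was not tested, so their windows may not be comparable. With genes cut into 10 classes of equal size by brightness, the median was 27, 27, 27, 26 and 26 in the 5 brightest classes and then 21, 11, 9, 7 and 6. The median thus changed mainly near the background limit and little among the 5 brightest classes. GGGCGG was found in 71.0% of windows of genes above background, in 41.5% of windows of genes not above it and in 44.6% of all 27305 promoters of the table. For CCGGAAG the shares were 20%, 6.51% and 10.7%. TATAAA ran the other way, with 5.46%, 14.5% and 12%, and stood in 11.9% of windows of the 100 brightest genes. CCAAT was in 37.6%, 35.5% and 35.7%. GC content moved with these shares, at a median of 65.3% in genes above background and 57.3% in the others. A match is a string in a window and not evidence of binding.

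Secreted products were measured for 210 genes, of which 122 (58.1%) were above background, against 53.6% of all genes. Of the 210, 50 were over 1000 on all 3 arrays, where 13.6% of all genes were. The leading one was CXCL8, the neutrophil-attracting chemokine interleukin 8, which ranked 31 with 19650, 21340 and 31870 on siCon arrays 1 to 3. Array 3 was the high one, 1.62-fold above array 1. A further CXCL8 probe had a mean of 14810, so both named probes were far above the limit. Fewer cells making a product and less RNA per cell cannot be told apart in such bulk samples.

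Of 39 cytokines and chemokines, 17 (43.6%) were above background, against 53.6% of all genes. IL18, an interleukin-1 family cytokine, had 10760, 10440 and 9146. The macrophage migration inhibitory factor MIF had 10400, 9756 and 9248, and IL1A had 4798, 4864 and 5144. In these 3 genes the arrays lay within 1.18-fold of each other. IL6, the ligand that signals through IL6ST to STAT3, had 3161, 3333 and 2860 and ranked 963. CCL2, the monocyte attractant, had 101.1, 110.1 and 88.59 and was not above background, since 1 array passed the limit. Other members above it, chosen after their values were seen, were the neutrophil attractants CXCL1 (2401, 2418 and 2707) and CXCL2 (2116, 2966 and 2060), TNF (927, 969.9 and 768.9) and IL1B (645.1, 670.7 and 604.5). Chemokines of the interferon response, CXCL9, CXCL10 and CXCL11, also chosen after their values were seen, were under the limit on all 3 arrays, as were the interferons IFNB1 and IFNG.

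Growth and angiogenic factors passed in 28 of 45 genes (62.2%), against 53.6% of all genes. DKK3, a secreted relative of the Wnt inhibitors, led with 5870, 5233 and 5577, and ADM, the vasodilator adrenomedullin, had 4813, 5357 and 4210. The other DKK3 probes averaged 3902, 114.4 and 85.62, and the dimmer 2 of these were not above background. VEGFB reached 2781 ± 379.6, with its other probes at 214.3 and 86.1, the dimmer not above background, and CCN2, a matrix-associated growth factor, 2500 ± 277.3. VEGFA, the main angiogenic factor, was above background but dim on its brightest probe, at 409.6, 391.5 and 317. Its other named probes had means of 126.6 and 84.43, and the dimmer of these did not pass. Members not above background, chosen after their values were seen, included HGF, IGF1, EGF and TGFB1.

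Matrix proteins passed in 25 of 43 genes (58.1%), against 53.6% of all genes. LAMC1, the laminin gamma chain of basement membranes, had 11990, 9499 and 11370, and LAMA5, a laminin alpha chain, had 3571, 3981 and 4311. MFAP5, a microfibril protein, averaged 5899 ± 655.1. THBS1, the adhesive glycoprotein thrombospondin, had 4876, 3308 and 5093, with array 2 the low one at 1.54-fold under the highest. The fibrillar collagens of fibroblasts, COL1A1 (99.08, 95.56 and 81.69) and COL3A1 (82.14, 84.77 and 83.59), were under the limit on every array, while another fibrillar collagen, COL5A1, had 780.4, 917.6 and 680.1. These collagens were named after their values were seen.

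Proteases and their inhibitors passed in 26 of 41 genes (63.4%), against 53.6% of all genes. SERPINE2, an inhibitor of thrombin and plasminogen activators, had 18420, 17630 and 19360 and ranked 63. TIMP2, an inhibitor of matrix metalloproteinases, had 6411, 4870 and 6169, the lysosomal protease CTSL 4971, 5383 and 5059, and the cysteine protease inhibitor CST3 5064, 4953 and 4401. The gelatinases were dim. MMP2 had 95.46, 106 and 107.2 and MMP9 had 102.4, 94.71 and 85.7, and neither was above background on all 3 arrays. PLAU, the urokinase plasminogen activator, chosen after its values were seen, had 2594, 2862 and 3393. Among other secreted products 26 of 42 passed, led by the galectin LGALS1 (11470 ± 1207), the class I light chain B2M (11310 ± 416.1), the calcium-binding NUCB1 (8859 ± 350.5) and prosaposin PSAP (8036 ± 396.6). LCN2, an iron-carrier protein chosen after its values were seen, had 4531, 4791 and 3780.

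**Figure D2:**
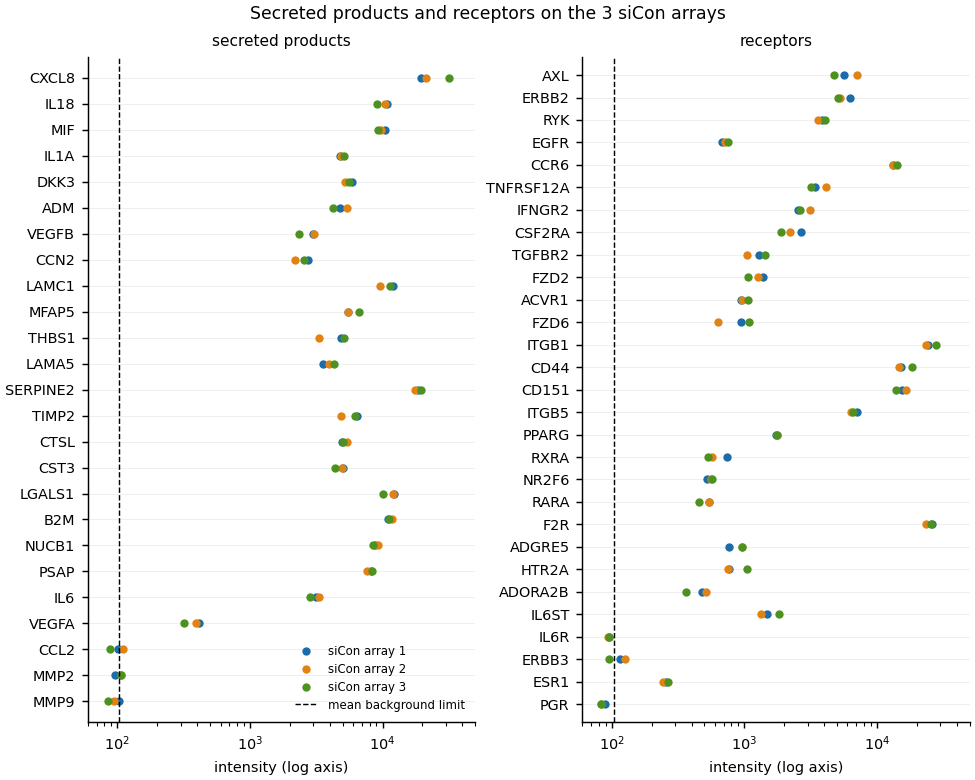
Intensity (log x axis) of 25 secreted products and 29 receptors on each of the 3 siCon arrays, 1 point per array, with the mean background limit dashed. CXCL8 stands at the top of the secreted genes with array 3 apart from arrays 1 and 2, IL6 lies near 3118, and CCL2, MMP2, MMP9, IL6R, ERBB3 and PGR lie around or under the limit.

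Receptors were measured for 218 genes, of which 113 (51.8%) were above background, against 53.6% of all genes. Of the 218, 22 were over 1000 on all 3 arrays, where 13.6% of all genes were. The count above background fell to 74 when every named probe of a gene had to pass, a rule added after the data were seen. That rule keeps genes with a single named probe and drops genes where any of several probes failed. Of the 53 receptor genes above background with several probes, 24 had no other probe above the limit.

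Receptor tyrosine kinases passed in 17 of 44 genes (38.6%), against 53.6% of all genes. AXL, the receptor of GAS6, had 5694, 7078 and 4772, and its other probe averaged 4138. ERBB2 had 6274, 5242 and 5066 and ranked 452, while its other named probes averaged 91.78 and 87.39 and were not above background. RYK, a Wnt receptor, had 3858, 3596 and 4080. EGFR had 678.8, 715 and 758, and 2 of its 4 probes passed. ERBB3, the partner of ERBB2 that binds neuregulins, had 114.5, 126.9 and 95.36 and was not above background because array 3 was under the limit. MET, the receptor of HGF, chosen after its values were seen, had 567.9, 454.6 and 749.4. Receptors of endothelial and mesenchymal cells in the same list, KDR, TEK, FLT1 and PDGFRB, chosen likewise, were under the limit on all 3 arrays, while PDGFRA was above it (157.3, 122.3 and 131.2) and TIE1 passed on 2 arrays (92.38, 108.5 and 112.3).

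Cytokine and chemokine receptors passed in 30 of 52 genes (57.7%), against 53.6% of all genes. CCR6, a chemokine receptor of lymphocytes, had 13240, 13310 and 14240, but its other probes averaged 95.25 and 89.0, at background. TNFRSF12A, the receptor of the cytokine TWEAK, had 3385, 4110 and 3190, the interferon gamma receptor chain IFNGR2 2540, 3114 and 2633, and CSF2RA, a chain of the GM-CSF receptor, 2657, 2225 and 1898. The other CSF2RA probes averaged 743.4, 83.42 and 75.62, and the dimmer 2 of these were not above background. IL6ST, the shared signalling chain of the IL6 family known as gp130, had 1485, 1328 and 1841 on 1 probe, with its other probes at 103.1 and 88.49. IL6R, the chain that binds IL6 itself, had 95.83, 93.52 and 96.21 and was under the limit on every array. STAT3, the factor downstream of that receptor, had 2743, 2217 and 2510, and its 3 probes averaged 2490, 851.7 and 715.1, all above background.

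Integrins and matrix receptors passed in 19 of 31 genes (61.3%), against 53.6% of all genes, and held the brightest gene of the receptor lists. ITGB1, the beta chain shared by most matrix-binding integrins, had 24200, 23470 and 27870 and ranked 24. Its other probes averaged 4301, 102.2 and 81.26, and the dimmer 2 of these were not above background. CD44, the hyaluronan receptor, had 15190, 14670 and 18500, and the tetraspanin CD151, an integrin partner, had 15580, 16470 and 13860. The other CD44 probes averaged 1682 and 121.8 and the other CD151 probes 637.5 and 369.8, all above background. ITGB5 averaged 6681 ± 364, with other probes at 3708, 627.2, 85.63 and 84.4, the dimmer 2 not above background. Among integrin alpha chains, chosen after their values were seen, ITGA3 had 3824, 4197 and 5218 and ITGAV 1259, 911.5 and 1536, while the leukocyte chains ITGAL, ITGAM and ITGAX were not above background. The leukocyte beta chain ITGB2, chosen likewise, was above it at 473.3, 539 and 441.2.

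Receptors of TGF-beta, BMP, Notch and Wnt ligands passed in 19 of 27 genes (70.4%), against 53.6% of all genes, mostly at moderate brightness. TGFBR2 had 1301, 1048 and 1433, the Wnt receptor FZD2 had 1388, 1267 and 1072, and the BMP type I receptor ACVR1 had 947.8, 959.6 and 1065. FZD6 was the more variable one, with 936, 630.4 and 1078. G protein-coupled receptors passed in 16 of 36 (44.4%). F2R, the thrombin receptor PAR1, ranked 25 with 25860, 23380 and 25750, and its second probe averaged 569.2. The next members, ADGRE5 (896.8 ± 107.9), the serotonin receptor HTR2A (858.2 ± 167.8) and the adenosine receptor ADORA2B (451.8 ± 81.1), ranked 3095, 3228 and 4912.

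Nuclear receptors passed in 12 of 28 genes (42.9%), against 53.6% of all genes. PPARG, the regulator of fat cell genes, was the brightest with 1731, 1751 and 1760, and its other 3 probes averaged 270.8, 90.62 and 78.52. RXRA, the common partner of nuclear receptors, had 743.2, 573.7 and 530.7. ESR1, the oestrogen receptor, had 256.5, 245.7 and 267.9 and was above background on all 3 arrays. PGR, the progesterone receptor and a known target of ESR1, had 88.82, 82.98 and 82.97, at the level of the olfactory receptor genes.

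The identity lists held 188 genes, of which 89 (47.3%) were above background, against 53.6% of all genes. Epithelial genes passed in 15 of 29 (51.7%) with a median of 132, near the 53.6% and the median of 125 of all genes. CLDN1, a tight junction claudin, led with 9499, 7312 and 10360. EPCAM, an epithelial surface glycoprotein, had 2569, 2596 and 3028, the keratin KRT19 had 2756, 2984 and 2381, and MAL2, an apical transport protein, had 2172, 2154 and 3244. The other EPCAM probe averaged 156.8. CDH1, the adherens junction cadherin of epithelia, had 105.1, 95.36 and 94.57, so 1 array of 3 passed the limit. Also not above background, and chosen after their values were seen, were the splicing factors ESRP1 and ESRP2 and the transcription factor GRHL2, which are typical of epithelia with CDH1. The keratins of simple epithelia KRT7 (1758, 1837 and 1279), KRT8 (1473, 1486 and 1175) and KRT18 (422.1, 464.1 and 427.2), chosen likewise, were above it.

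Mesenchymal genes passed in 8 of 18 (44.4%), with a median of 113, against 53.6% and a median of 125 for all genes. VIM, the intermediate filament of mesenchymal cells that many cultured lines also carry, had 26060, 27640 and 29670 and ranked 19, and its second probe averaged 12320. S100A4 had 20900, 19550 and 17630. CDH2, neuronal cadherin, had 1471, 1474 and 1207, and the actin-binding TAGLN 1844, 2049 and 1681. The other TAGLN probes averaged 226.2 and 91.29, and the dimmer was not above background. Of the transcription factors that repress CDH1, all chosen after their values were seen, SNAI2 had 1351, 1331 and 1361 and TWIST1 had 430.3, 400.9 and 355.7. SNAI1 and ZEB2 were under the limit on all 3 arrays, and ZEB1 passed on 2 arrays with 145.6, 94.71 and 138.4. The cells thus carried keratins and EPCAM together with VIM and CDH2, with the CDH1 probe near background.

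Ovarian carcinoma markers passed in 14 of 23 genes (60.9%), with a median of 120, near the 53.6% and the median of 125 of all genes. CD24, a surface glycoprotein frequent in ovarian carcinoma, had 19010, 22840 and 27030, with array 3 the highest. Its other probe averaged 1708. MECOM, a transcription factor often gained in ovarian carcinoma, had 4282, 3471 and 5124, but its other probe averaged 88.63. MSLN, mesothelin, had 1315, 1380 and 1422. PAX8, the Müllerian lineage factor, had 1216, 1211 and 1273, a range of 1.05-fold, and 2 of its 3 probes passed. The folate receptor FOLR1 had 669.4, 701.4 and 473.6, with other probes at 401.9 and 92.58, the dimmer not above background. MUC16, which carries the CA125 antigen, had 108, 110.4 and 112 and passed narrowly on all 3 arrays. WT1, a transcription factor of serous ovarian carcinoma and mesothelium, had 108.1, 102.7 and 96.11 and passed on 1 array. Among the markers named, PAX8, MSLN, FOLR1 and CD24 were thus well above background on their brightest probes, and WT1 and PGR were not. As a whole the list did not stand apart from all genes.

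Markers of other ovarian and peritoneal lineages were mostly dim, where 53.6% of all genes were above background. Mesothelial markers passed in 2 of 9 genes, MSLN and LRRN4 (886.9, 842 and 775.3), while CALB2, UPK3B and PDPN, named after their values were seen, did not. Granulosa and germ cell markers passed in 2 of 16, ZP3, a zona pellucida glycoprotein (738.1, 816.5 and 562.7), and AMH, the anti-Müllerian hormone (127.1, 114.7 and 126.4). Markers of clear cell, mucinous and endometrioid tumours passed in 3 of 12, namely the protease inhibitor TFPI2 (2971 ± 208.2), the annexin ANXA4 (1240 ± 179.3) and the protease CTSE (138.3 ± 7.689). Cancer-testis genes, which are read in the testis and in some tumours, passed in 3 of 24, with PRAME at 300.7, 293.6 and 289.2, SPANXA1 at 221.6 ± 9.039 and MAGEA12 at 108.3 ± 5.541.

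HOX genes, which record position along the body axis, passed in 18 of 29 (62.1%), against 53.6% of all genes, and differed by cluster. Another 10 listed HOX genes had no named probe, and HOXA2 was the only HOXA gene measured. The HOXA cluster is thus not described here. Of the HOXB genes 8 of 10 were above background, with HOXB2 at 3482, 3540 and 2515, HOXB7 at 2983, 3283 and 3058, HOXB5 at 2424, 2366 and 2564 and HOXB8 at 2145, 2073 and 2345. The HOXB median was 346. HOXD genes passed in 7 of 9, with a median of 153, and HOXC genes in 2 of 9, with a median of 91.9. These 4 HOXB genes were the measured HOX genes over 1000 on all 3 arrays.

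The genes next to ERBB2 on chromosome 17 covered a wide range of probe brightness. Of 16 genes of the neighbourhood, ERBB2 included, 12 were above background, where 53.6% of all genes were. Of the 16, 2 were over 1000 on all 3 arrays, where 13.6% of all genes were. Whether extra gene copies bear on these counts was not tested. The 2 genes were ERBB2 and PPP1R1B, a phosphatase inhibitor, which had 6849, 6742 and 8450. The other PPP1R1B probes averaged 119.1 and 117.7. PGAP3, which lies next to ERBB2 and remodels lipid anchors, had 905.5, 937.8 and 875.1. On the other side MIEN1 had 221.1, 289.8 and 218.2 and GRB7, an adaptor that binds ERBB2, had 471.2, 476.6 and 424.7, both named after their values were seen. NEUROD2, TCAP, IKZF3 and ZPBP2, genes of neurons, muscle, lymphocytes and sperm, were the 4 not above background.

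Among tumour suppressors and oncogenes 15 of 19 (78.9%) were above background, with a median of 547, against 53.6% and a median of 125 for all genes. The cyclin CCND1 had 8427, 7298 and 7896, the kinase AKT1 had 4962, 4695 and 3717, the cyclin partner CDK4 had 3095, 4070 and 3706 and the TGF-beta mediator SMAD4 had 2027, 2253 and 2822. CDKN2A had 89.68, 104.7 and 88.45 and was not above background. MTAP, a methionine salvage enzyme whose gene neighbours CDKN2A, was above it with 313.6, 320.6 and 319.9, a range of 1.02-fold. CDKN2B, the inhibitor gene beside them, chosen after its values were seen, passed at 118.7, 133.3 and 125.1.

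**Figure D3:**
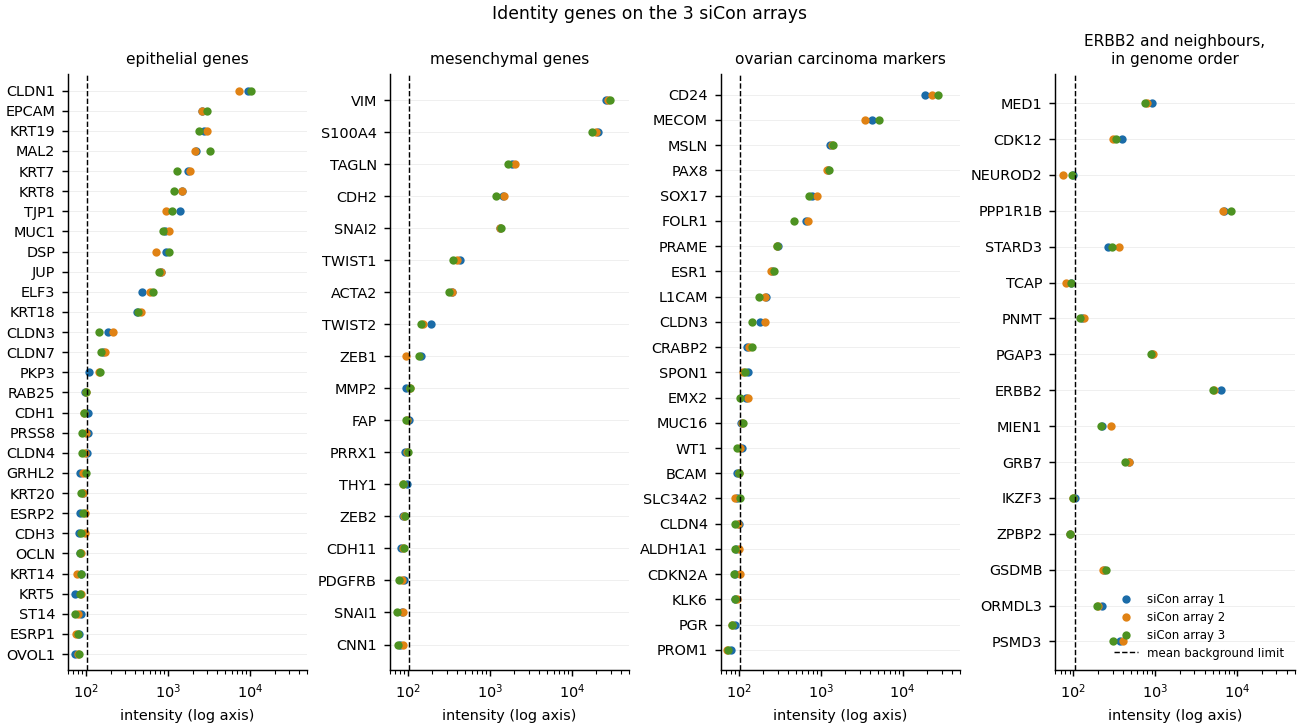
Intensity (log x axis) of epithelial genes, mesenchymal genes, ovarian carcinoma markers and the ERBB2 neighbourhood on each of the 3 siCon arrays, 1 point per array, with the mean background limit dashed. The points of 1 gene lie close together relative to the distance between genes; CLDN1, VIM, CD24 and PPP1R1B head their panels, and CDH1, WT1 and PGR lie near the limit.

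Of 18 antigen presentation genes of MHC class I and class II, 10 (55.6%) were above background, a share near the 53.6% of all genes. Beside B2M, the peptide transporter TAP1 (1365 ± 191.6), the loading factor TAPBP (1354 ± 125.4) and HLA-B (1021 ± 53.15) were over 1000 in their means. HLA-C, chosen after its values were seen, was under the limit at 76.13, 91.27 and 95.92, as were the class II regulator CIITA and the class II chains HLA-DRA, HLA-DRB1, HLA-DQB1, HLA-DPA1 and HLA-DPB1. HLA-DMB, which helps load class II molecules, was above it at 499.7, 483.8 and 385.1, chosen likewise. HLA probes may miss some alleles, which was not tested.

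Genes of cell types other than carcinoma cells were nearly all at background. Of 43 markers of leukocytes, endothelium and fibroblasts, 3 (6.98%) were above it, against 53.6% of all genes. They were CD68, a lysosomal glycoprotein of macrophages that other cells also carry (1497, 1815 and 1294), LYZ, lysozyme (116, 127.8 and 113.2), and PDGFRA, a growth factor receptor of fibroblasts (157.3, 122.3 and 131.2). The defining leukocyte markers PTPRC (96.52, 82.4 and 86.67) and CD3E (82.63, 93.97 and 94.11) and the endothelial marker VWF (74.5, 87.81 and 69.27) were under the limit on every array. The endothelial marker PECAM1 passed on 2 arrays, with 129.3, 144.5 and 97.83. These markers of each type were named after their values were seen.

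Genes near background were also sought among the lists of other tissues. There 13 of 146 genes (8.9%) were above background, against 53.6% of all genes. No erythroid gene of 10 and no intestinal or stomach gene of 16 passed, and 1 each of 22 muscle, 21 liver and 10 skin genes did, namely the troponin TNNT1 (292.6 ± 24.27), the fibrinogen chain FGA (241.6 ± 30.48) and the keratin KRT10 (2178 ± 425.1). Neural genes passed in 4 of 17, with MBP, myelin basic protein, at 1933, 1750 and 1973 and GAD1, an enzyme that makes the transmitter GABA, at 490.9, 496.6 and 268.1. The glutamate receptor GRIN1 (148.8 ± 10.54) and the synaptic SNAP25 (123.8 ± 12.47) passed by little. Eye genes passed in 2 of 19, the crystallins CRYBB2 (364.7 ± 43.48) and CRYGS (141.6 ± 12.39). Sperm genes passed in 2 of 15, ODF2, which also serves centrosomes (761.7 ± 134.1), and LDHC (146.1 ± 11.69), and pancreas and pituitary genes in 2 of 16, the hormone chain LHB (197.9 ± 26.81) and the amylase AMY2A (119 ± 16.4). Most of the 13 were thus dim, with KRT10 and MBP the ones over 1000 on all 3 arrays.

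Families grouped by symbol differed. Keratin-associated proteins of hair passed in 2 of 75 genes and bitter taste receptors in 1 of 24. By the limit's own making few olfactory receptor genes could pass, and 6 of 364 (1.65%) did. The dimmest gene of all was OR10A5, whose window is printed above, with 67.38, 63.98 and 64.85. Replication-dependent histone genes, matched by symbol in a way that missed most linker H1 genes, passed in 16 of 59 (27.1%). The share of all genes was 53.6%. Their messages mostly lack a poly(A) tail, and whether that bears on the count was not tested.

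**Figure D4:**
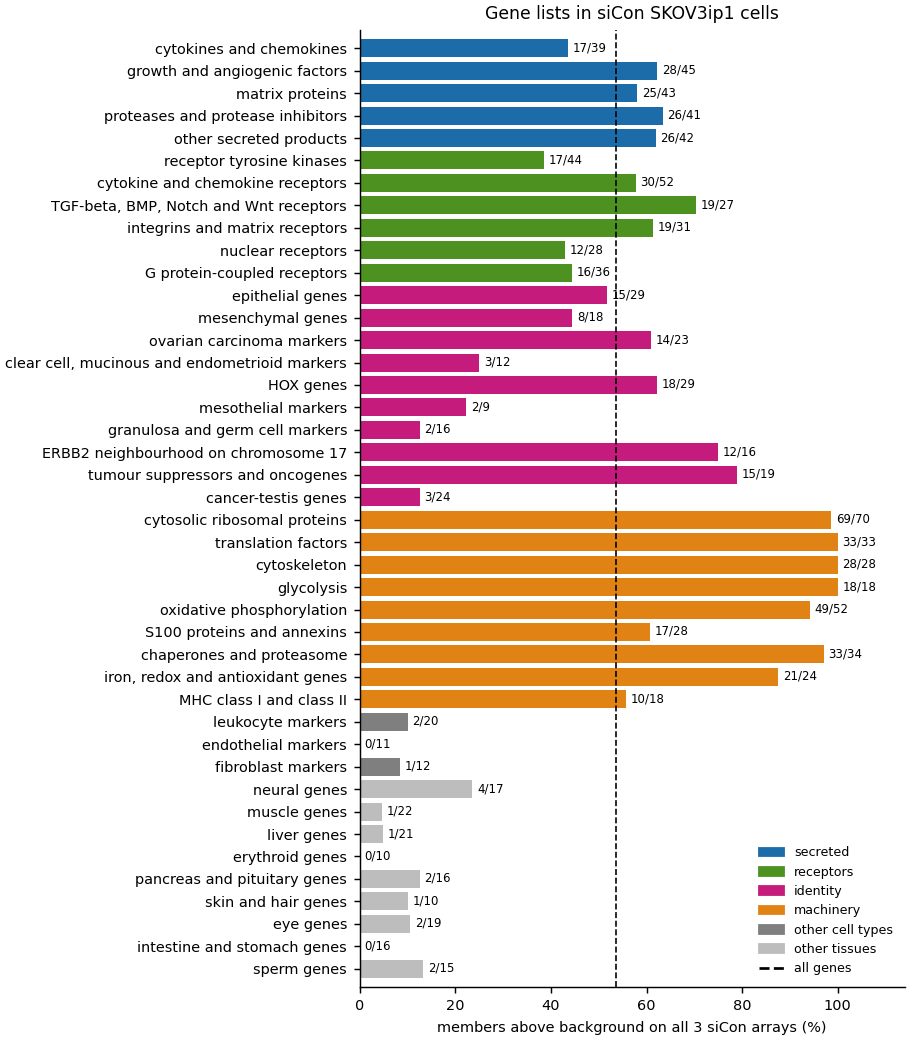
Share of measured members above background on all 3 siCon arrays (x axis, percent) for each of the 42 gene lists, with the count beside each bar and the share of all genes (53.6%) dashed. The machinery lists lie between 55.6% and 100% and the lists of other cell types and other tissues reach at most 23.5%, while secreted, receptor and identity lists lie on either side of the dashed line.

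The 3 arrays agreed closely for most genes. Among genes above background the median SD of log2 intensity was 0.15 and the median coefficient of variation 10.3%, and 9018 of 10094 genes had one under 20%. Arrays 1 and 2 differed by over 1.5-fold in 46 of these genes, arrays 1 and 3 in 463 and arrays 2 and 3 in 630. Array 3 was the one farthest from the other two for 5048 genes, array 1 for 2298 and array 2 for 2748, so the spread was largely that of array 3. Across genes above background Pearson's r of log2 values was 0.994 between arrays 1 and 2, 0.986 between 1 and 3 and 0.984 between 2 and 3, over genes that are not independent replicates. By list, the median deviation of oxidative phosphorylation genes from their mean was 0.1, 0.11 and -0.2 on the log2 scale on arrays 1 to 3, and that of ribosomal protein genes 0.05, 0.05 and -0.1.

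The genes of largest spread included small noncoding RNAs. SNAR-A1, a small noncoding RNA, had 8191, 2296 and 3163, SNORD13, a small nucleolar RNA, had 782.6, 219.7 and 314.7, and BCYRN1, a short RNA related to Alu elements, had 1285, 574.5 and 616.5. In these 3 genes array 1 was the high one. The histone gene H4C3 had 15830, 9439 and 6605, also with array 1 highest. In the others another array was the highest. GNG12, a G protein gamma chain (1194, 1204 and 2437), and BZW1, a translation regulator (553.1, 693.9 and 1239), were highest on array 3. HES4, a transcriptional repressor (1931, 2413 and 1048), and UNC119, a trafficking protein (196.2, 366.6 and 165), were highest on array 2. For HES4 the array farthest from the others was array 3, the lowest.

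Probes of 1 gene often disagreed. Of the 100 brightest genes 63 had several named probes, and in 54 of these every other probe was above background. Passing the limit did not mean a like level, since in 19 of the 63 the next probe was over 10-fold dimmer. In 5 of the 63 no other probe was above background, namely in SLC7A5P2, LAIR1, SNRPD2, ITIH5 and FARSB. LAIR1, an inhibitory receptor of leukocytes, ranked 10 with 34370, 29670 and 31390 on 1 probe, and its other probe averaged 89.34. The pseudogene SLC7A5P2 had 31080, 30310 and 34770, with other probes at 105.1 and 92.59, and whether its probe also binds the transcript of its parent gene was not tested. CLEC2D, a lectin-like ligand, ranked 18 on a probe averaging 28680, with others at 607.3 and 84.81. Among all genes above background 3884 had several probes and in 1353 of them no other probe passed. For such genes the level is that of 1 probe. Of the 157 genes named by rule, 39 lost their call when every named probe had to pass, among them AKT1, TAGLN, TGFBR2, TAPBP, ADGRE5, RARA, FOLR1, PRAME and FGA.

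**Figure D5:**
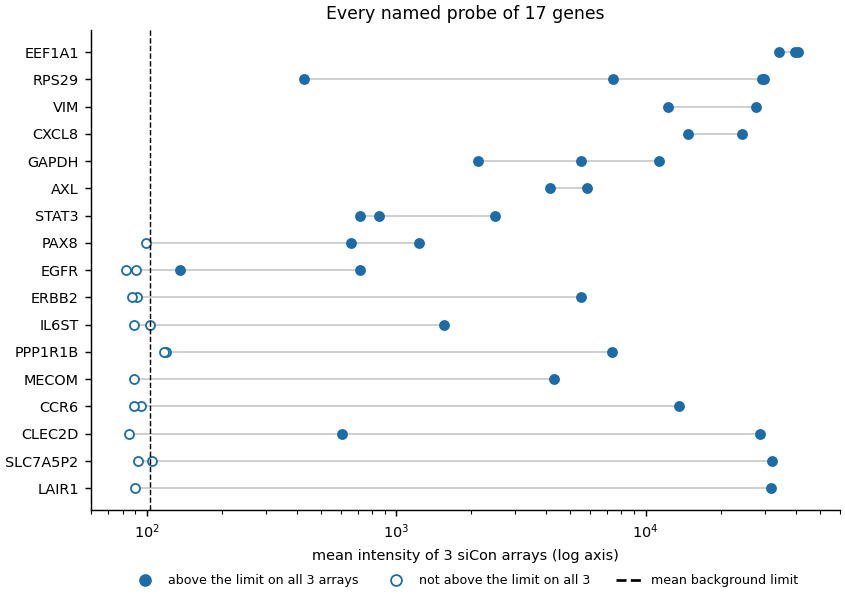
Mean intensity over the 3 siCon arrays (log x axis) of every named probe of 17 genes, filled where the probe was above the limit on all 3 arrays and open where it was not, with the mean limit dashed and a line joining the probes of each gene. The probes of EEF1A1, VIM, CXCL8 and AXL lie close together, and those of LAIR1, SLC7A5P2, CCR6, MECOM and ERBB2 lie at both ends of the scale.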

How the data were processed

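Total RNA of SKOV3ip1 cells was copied to biotin-labelled cRNA and hybridised to Illumina bead arrays, per the labels' protocols. The authors deposited unnormalised probe intensity values and processed intensity values on a linear scale, made with BeadStudio per the submitters' processing notes. No source used here states whether background was subtracted. Groups and replicate numbers came from the sample titles.

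The unnormalised intensities of the 3 siCon arrays were quantile-normalised among themselves in limma 3.58.1 under R 4.3.3, without background subtraction, and then handled in Python 3.11.15. Of 48803 probes, 28098 had 1 gene symbol, 13 several and 20692 none. Symbols were updated through a RefSeq table of GRCh38.p14, 28059 by Entrez ID and 14 by accession, and 25 kept the platform's symbol. A gene was represented by its named probe of highest mean log2 intensity. Its limit was the 95th percentile of olfactory receptor genes per array. Of 1166 genes in 42 lists, 92 had no named probe and were not analysed here, nor were protein sequences.

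Genes named were the 20 brightest, up to 4 of the brightest members above background of each list, a set fixed by name (such as IL6, ERBB2, CDH1, PAX8 and STAT3), and the 8 of largest SD of log2. Members and lists were chosen with earlier results of these data known. The code of the call was run on simulated data, with silent genes drawn at the level and spread of the olfactory receptor genes. Since those genes also set the limit, that run cannot show how often silent genes pass in the real data. Alternatives were other normalisations, the authors' processed values, a background correction with an offset of 50, other limits, the mean of a gene's probes, each array left out, and a rule on every probe added after the data were seen.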

Additional observations from a re-analysis of the deposited data

Results flagged for a closer look

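Probes with no single gene symbol in the platform annotation entered none of the results above, and 2208 of the 20705 (10.7%) were above background on all 3 siCon arrays, against 13152 of 28098 probes with 1 symbol (46.8%). This is a signal in data left out of the description. The brightest of them, ILMN_1754990, had intensities of 44030, 35610 and 39030 on siCon arrays 1 to 3. Single arrays were not tested as outliers, because the group holds 3.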

How the results depend on the processing

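The 3 arrays of 1 line, the unknown background subtraction and the choice of probe limit these values. Genes above background numbered 10094 under every normalisation and with the authors' processed values, since these keep the order of probes within an array, and 7276 to 10782 under the other alternatives. Receptor genes above background fell to 74 with the 95th percentile of genes of other tissues as the limit and to 74 with the rule on every probe (added after the data were seen), against 113. Markers of other cell types, 3 in the main setting, were 1 with the mean of a gene's probes, 1 with the 99th percentile of olfactory receptors, 1 with the percentile of other tissues, 7 with the mean of the arrays and 1 with the rule on every probe, and 3 to 6 with an array left out. Genes of other tissues above background were 8 with their own percentile and 7 with the rule on every probe, against 13. The spread between control arrays, as the median SD of log2 among genes above background, was 0.149, and 0.087 to 0.145 with an array left out, lowest without array 3. The median CpG count was 26 for the 200 brightest genes, against 24.5 for the 100 brightest. In these cases the cause was not tested. Of 157 named genes, 113 kept 1 call in every setting. With the mean of a gene's probes 63 of the 100 brightest genes were shared. No paired analysis was possible because 1 group was described.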
